A study of Mus musculus with 28 samples.

Results

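Trimethylation of lysine 4 on histone H3 (H3K4me3) was called at 3148 places that lie more than 10 kb from both annotated ends of every protein-coding gene, in neural stem cells with and without Smchd1. These distal summits are wild-type H3K4me3 summits with a null H3K4me3 summit within 1 kb, so the mark was called there in both genotypes, as it was at 92.6% of all wild-type summits. They make up 14.5% of the 21716 shared summits (exact 95% binomial interval 14.0% to 15.0%) and 13.4% of the 23449 wild-type summits on assembled chromosomes. The summits were chosen by both H3K4me3 lists and by the coding gene ends of the RefSeq table (GRCm38.p6), so H3K4me3 scores and distances to coding genes are descriptions here. The other 18568 shared summits, each within 10 kb of a coding gene end, are called proximal below. A coding gene that the table does not hold could lie closer to a distal summit than these distances say.

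The cells were neural stem cells cultured from the brains of male C57BL/6 x FVB/N embryos at E14.5, homozygous for the MommeD1 allele of Smchd1 (null, MommeD1/MommeD1) or wild type for Smchd1. Per genotype, H3K4me3, H3K27me3 and Smchd1 were each immunoprecipitated in 2 libraries, methylated DNA was captured on a methyl-CpG binding domain (MBD) in 3 libraries, and 1 whole cell extract served as the control of both histone marks and of MBD. Ctcf was immunoprecipitated in 2 libraries each from null cells, untransduced wild-type cells and wild-type cells transduced with a non-silencing shRNA (short hairpin RNA), and called against Ctcf in wild-type cells with 2 Ctcf shRNAs, 1 library per hairpin. Smchd1 in wild-type cells was called against Smchd1 immunoprecipitation in null cells. Each list pools the libraries of its group, so no value below has a replicate error and no test across samples was possible. Both genotypes had H3K4me3 within 2 kb of an end of 6 of 6 neural stem cell marker genes, among them Sox2, Nes and Olig2. Of 3 blood and microglia markers and 2 endothelial markers, 0 were marked in either list, against 2 and 1 of 4 neuronal markers, 1 and 1 of 4 glial markers, and 2 and 2 of 2 mesenchymal markers in null and wild-type cells. The share of all coding genes marked in this way is not given here, so these counts do not establish the identity of the cells.

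H3K4me3 is deposited around the starts of active and poised genes, by methyltransferase complexes that favour unmethylated CpG-rich DNA. Marked places far from the ends of coding genes can be alternative starts inside long genes, the starts of noncoding RNAs, genes read by RNA polymerase III such as transfer RNA (tRNA) genes, or active enhancers. Ctcf, a DNA-binding protein with many zinc fingers, acts at insulators and at the bases of chromatin loops, and Smchd1 is a noncanonical member of the structural maintenance of chromosomes family needed for silencing of the inactive X chromosome, some imprinted genes and protocadherin clusters.

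The places at which the distal mark met a noncoding gene or another protein are shown first as sequence. Each promoter below is the 250 bases before a RefSeq start with a distal summit within 1 kb (GRCm38.p6), read 5′ to 3′ on the strand of the gene, with CpG dinucleotides in capitals because unmethylated CpG-rich DNA is where H3K4me3 is usually laid down. Snhg17 (chr2:158361510-158361759, minus strand) and Dancr (chr5:74092810-74093059, plus strand) had the highest wild-type scores among distal summits outside coding genes at ends of long noncoding RNAs (lncRNAs). Rab10os (chr12:3235541-3235790, plus strand) and Gm51701 (chr9:123924898-123925147, plus strand) are lncRNA starts with both Smchd1 and Ctcf beside the summit. Lrif1 (chr3:106721432-106721681, plus strand) is a start inside a coding gene with Smchd1 beside it. Airn (chr17:12741061-12741310, plus strand) is the imprinted lncRNA that lies partly inside Igf2r, and Tcf12 (chr9:71896097-71896346, minus strand) is a start inside a coding gene whose window holds 0 CpG dinucleotides.
Snhg17: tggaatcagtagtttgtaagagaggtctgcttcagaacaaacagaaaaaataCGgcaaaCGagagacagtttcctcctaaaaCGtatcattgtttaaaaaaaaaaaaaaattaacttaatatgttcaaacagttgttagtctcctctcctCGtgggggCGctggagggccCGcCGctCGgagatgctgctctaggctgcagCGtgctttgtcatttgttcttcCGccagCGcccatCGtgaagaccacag
Dancr: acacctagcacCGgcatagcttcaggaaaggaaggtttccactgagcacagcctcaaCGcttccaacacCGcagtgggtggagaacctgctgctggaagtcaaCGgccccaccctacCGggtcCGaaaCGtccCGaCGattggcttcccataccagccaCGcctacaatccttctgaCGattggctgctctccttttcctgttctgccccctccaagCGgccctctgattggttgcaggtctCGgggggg
Rab10os: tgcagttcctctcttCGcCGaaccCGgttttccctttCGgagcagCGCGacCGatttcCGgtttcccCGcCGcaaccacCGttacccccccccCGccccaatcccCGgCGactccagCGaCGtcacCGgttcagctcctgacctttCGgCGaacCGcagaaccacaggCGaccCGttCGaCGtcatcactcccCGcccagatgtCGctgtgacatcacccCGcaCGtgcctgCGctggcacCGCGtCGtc
Gm51701: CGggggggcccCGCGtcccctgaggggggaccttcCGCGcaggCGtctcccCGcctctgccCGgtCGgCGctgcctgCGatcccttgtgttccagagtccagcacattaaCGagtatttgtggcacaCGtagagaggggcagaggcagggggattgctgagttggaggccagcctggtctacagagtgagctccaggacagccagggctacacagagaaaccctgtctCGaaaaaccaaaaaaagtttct
Lrif1: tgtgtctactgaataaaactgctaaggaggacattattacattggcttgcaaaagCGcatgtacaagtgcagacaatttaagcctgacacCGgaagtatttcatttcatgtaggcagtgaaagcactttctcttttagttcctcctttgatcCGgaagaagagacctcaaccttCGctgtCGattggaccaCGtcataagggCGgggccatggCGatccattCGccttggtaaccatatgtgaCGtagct
Airn: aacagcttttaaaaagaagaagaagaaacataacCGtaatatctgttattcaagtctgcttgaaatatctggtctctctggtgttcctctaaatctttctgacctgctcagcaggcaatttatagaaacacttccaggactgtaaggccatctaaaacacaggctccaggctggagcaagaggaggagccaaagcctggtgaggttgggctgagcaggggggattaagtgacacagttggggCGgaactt
Tcf12: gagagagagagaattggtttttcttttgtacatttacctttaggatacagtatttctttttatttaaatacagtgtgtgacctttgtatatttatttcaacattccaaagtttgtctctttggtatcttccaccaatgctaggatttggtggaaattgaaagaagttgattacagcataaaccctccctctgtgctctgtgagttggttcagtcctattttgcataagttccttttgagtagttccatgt

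CpG dinucleotides numbered 12 before Snhg17, 13 before Dancr, 32 before Rab10os, 14 before Gm51701, 10 before Lrif1 and 2 before Airn. The summits lay 103 to 297 bp from these starts. Over whole RefSeq promoter windows of 300 bases (250 before to 50 after the start), coding starts with a distal summit within 1 kb had a median ratio of observed to expected CpG of 0.665 (n = 552 windows of 437 genes), against 0.796 at coding starts beside proximal summits and 0.567 over all 21263 coding starts. At lncRNA starts the medians were 0.502 beside distal summits (n = 342 windows of 291 genes), 0.801 beside proximal summits and 0.245 over all 11588 lncRNA starts. The letters GGGCGG, the core of the GC box, which itself holds a CpG, stood on either strand in 59.1% of the distal coding and 44.7% of the distal lncRNA windows, against 46.2% and 16.3% of all coding and all lncRNA windows. The letters TATAAA, the core of the TATA box, stood on either strand in 6.52% and 11.1% of the distal windows. In all coding and all lncRNA windows the shares were 12.6% and 15.5%. Beside proximal summits, GGGCGG stood in 70.0% of coding and 64.1% of lncRNA windows, and TATAAA in 5.75% and 4.96%. The windows beside distal summits were thus richer in CpG than the average window of their class and poorer than those beside proximal summits, and a match or its absence says nothing of the factor.

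MicroRNA genes form another group of distal summits. Of 1228 microRNA genes in the table, 31 had a distal summit within 2 kb of an end (2.52%), by 29 summits, and mature sequences were given for 26 of the 31. The sequences below, from RefSeq, are of 1 arm each of the listed neural and proliferation microRNAs matched in the sequence table, with their relatives miR-106a and miR-19b, which are not on that list. The seed (bases 2 to 8) is in capitals, and microRNAs with the same seed stand together. The seed is the part that chooses targets, and 3 of the microRNAs share AAAGUGC while 2 share GUGCAAA.
miR-17-5p: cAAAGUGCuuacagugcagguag
miR-20a-5p: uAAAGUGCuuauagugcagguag
miR-106a-5p: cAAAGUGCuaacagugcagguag
miR-18a-5p: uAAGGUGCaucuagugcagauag
miR-19a-3p: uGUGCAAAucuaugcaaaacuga
miR-19b-3p: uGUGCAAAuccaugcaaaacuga
miR-9-5p: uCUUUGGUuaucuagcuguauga
miR-137-3p: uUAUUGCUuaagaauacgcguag
miR-125b-5p: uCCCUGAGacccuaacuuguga

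Of 30 neural and proliferation microRNA genes and host transcripts in the table, 14 had a distal summit within 2 kb of an end. Another shared summit lay at 3, and 13 had none. Over the whole table, 2.52% of microRNA genes and 3.90% of lncRNA genes had a distal summit. The host transcripts among the 14 are lncRNAs. Of 26 microRNA genes and host transcripts of blood, liver, muscle and epithelium, 0 had a shared H3K4me3 summit of either kind, against 178 of all 1228 microRNA genes (14.5%). Each gene is counted singly, so these are not counts of independent places. Mir17, Mir18, Mir19a, Mir20a and Mir17hg were all counted through the same summit, and Mir124a-1 and its host transcript Mir124a-1hg had summits in common. Scores are what the authors' peak caller gave on the −log10 scale, from either p or q values, and since each list has its own depth, a difference between lists is not read as a change in the mark. Mir9-1 (chr3:88215598-88215686), 1 of the genes of miR-9, which restrains the self-renewal of neural stem cells, had a summit 407 bp away that scored 53.0 in the null list and 47.5 in the wild-type list. The summit at Mir137 (chr3:118433857-118433929), whose product acts in neuronal differentiation, lay 7 bp from an end of the gene and scored 21.5 in the null list and 26.9 in the wild-type list. Mir124a-1 and Mir124a-3 encode miR-124, the abundant microRNA of neurons. Their summits scored 22.6 and 11.0 in the null list, against 15.4 and 12.7 in the wild-type list. The summit 1264 bp from Mir17 (chr14:115043671-115043754), which starts the proliferation-linked miR-17 cluster, scored 33.3 in the null list and 32.4 in the wild-type list. A Ctcf summit lay 157 bp from it in the null list and 192 bp from it in the untransduced list, while the nearest in the non-silencing list was 24559 bp away. Mir125b-1 and Mir125b-2 had summits 1817 and 1931 bp away, with 29.2 and 22.9 in the null list, against 31.2 and 19.6 in the wild-type list. Mir106a on the X chromosome, which shares its seed with miR-17, had a summit 1924 bp away that scored 12.5 in the null list and 9.90 in the wild-type list.

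Distal summits also lay beyond 2 kb from microRNA genes, and those named here were picked out after their values were seen. Position 83733351 on chromosome 13, 5463 bp from Mir9-2, scored 52.8 in the wild-type list. The nearest null summit lay 985 bp from it and scored 33.5. Position 48546342 on chromosome 13, 8070 bp from Mirlet7a-1 of the let-7 family, scored 53.1 in both lists. Primary transcripts of microRNAs can start far from the hairpin, and the 2 kb limit does not count such starts.

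**Figure D1:**
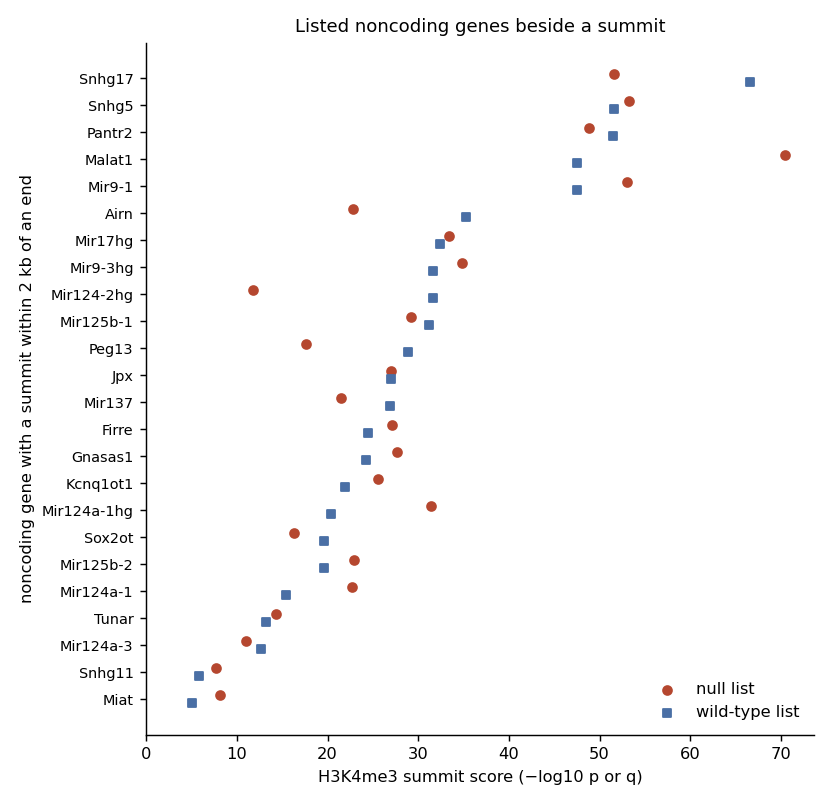
Score of the distal H3K4me3 summit beside each listed noncoding gene (−log10 p or q, as the authors gave it), null list as circles and wild-type list as squares, for the summit with the highest wild-type score where a gene has several, and 1 gene per summit. Scores run from 5.08 at Miat in the wild-type list to 70.4 at Malat1 in the null list.

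Long noncoding RNAs were the most frequent noncoding class. A noncoding gene end lay within 2 kb of 819 distal summits (26.0%, interval 24.5% to 27.6%), against 18.98% of proximal summits and 20.0% of all shared summits. The nearest such gene was an lncRNA at 616, a tRNA at 75, a pseudogene of either class at 81, a microRNA at 20 and a small nuclear RNA at 14. Among neural noncoding RNAs, 9 of 32 had a distal summit, 14 had another shared summit and 9 had none. Over all 12727 lncRNA genes, 3.90% had a distal summit within 2 kb of an end and 18.7% a shared summit of either kind. Malat1, an abundant nuclear RNA, scored 70.4 in the null list and 47.5 in the wild-type list. Snhg17 and Snhg5, host transcripts of small nucleolar RNAs, scored 51.6 and 53.3 in the null list, against 66.6 and 51.6 in the wild-type list. Dancr, an RNA that keeps progenitor cells undifferentiated, scored 48.9 in the null list and 59.9 in the wild-type list. Pantr2, transcribed beside the neural factor gene Pou3f3, scored 48.8 in the null list and 51.4 in the wild-type list. Sox2ot, which spans Sox2, scored 16.3 in the null list and 19.6 in the wild-type list. Miat and Snhg11 were at the low end, with 8.10 and 7.74 in the null list, against 5.08 and 5.86 in the wild-type list.

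Of 14 imprinted or X-linked noncoding RNAs, 6 had a distal summit, Ftx had another shared summit, and 7, among them Xist, Tsix, H19 and Meg3, had none. The shares over all lncRNA genes were 3.90% for distal summits and 18.7% for shared summits of either kind. Kcnq1ot1, the antisense RNA of an imprinted domain on chromosome 7, scored 25.5 in the null list and 21.9 in the wild-type list. Airn, the RNA needed for imprinting of Igf2r, scored 22.8 in the null list and 35.3 in the wild-type list. Gnasas1, the antisense transcript of Gnas, scored 27.7 in the null list and 24.2 in the wild-type list. Peg13, a paternally expressed RNA, scored 17.7 in the null list and 28.9 in the wild-type list. MBD summits of the lists named for null and wild type lay 305 and 127 bp from the Kcnq1ot1 summit. They lay 152 and 120 bp from that of Gnasas1 and 191 and 323 bp from that of Peg13, and those at Airn are given with the MBD results. On the X chromosome, Jpx, an activator of Xist, scored 27.02 in both lists, and Firre scored 27.1 in the null list and 24.5 in the wild-type list. The cells were male and the lists hold no allele, so these values do not tell which parental copy carried the mark.

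Transfer RNA genes had distal summits more often for their number than lncRNA or microRNA genes. A distal summit lay within 2 kb of 96 of 408 tRNA genes (23.5%), against 496 of 12727 lncRNA genes (3.90%) and the 2.52% of microRNA genes given above. The order was the same for shared summits of either kind, which lay within 2 kb of 248 tRNA genes (60.8%), 2374 lncRNA genes (18.7%) and 178 microRNA genes (14.5%), so it is not particular to distal summits. The tRNA class took 2.38% of distal and 0.835% of proximal summits, with a median score of 25.4 in the null list and 23.0 in the wild-type list at distal tRNA summits. Many lay in 2 stretches of chromosome 13, chosen after they were seen: 20 distal summits between 21161228 and 21934387, of which 17 had a tRNA as the nearest noncoding gene within 2 kb, and 21 between 23285232 and 23519299, of which 19 did. The highest wild-type score at a tRNA was that of n-TEttc6 on chromosome 14, with 50.6 in the null list and 59.8 in the wild-type list. In the 75 summits at tRNA genes, Ctcf was within 1 kb of 0 in the null list (interval up to 4.80%), 3 in the untransduced list and 7 in the non-silencing list. Gene copies of a tRNA are nearly identical, and reads from them may have been placed on any copy.

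Of the distal summits, 1725 (54.8%, interval 53.0% to 56.5%) lay inside an annotated coding gene, against 75.4% of proximal and 72.4% of all shared summits. The distal rule restricts which genes can hold a summit, since only genes longer than 20 kb have a position over 10 kb from both ends. The 1725 summits fell in 1010 coding genes, 10.1% of the 10038 coding genes longer than 20 kb, with a median length of 119 kb for the hosts and 49.2 kb for those 10038. In 579 hosts there was 1 distal summit, and in 68 there were at least 4. Tcf4, a basic helix-loop-helix factor with many known starts, held 21, with scores up to 38.0 in the null list and 44.4 in the wild-type list. Nfia, a nuclear factor I gene of neural and glial development, held 10, and its relative Nfix 8. Ank2, an ankyrin that links channels to the cytoskeleton, and Bcor, a corepressor on the X chromosome, held 9 each. Pde4d and Celf2, a cyclic AMP phosphodiesterase and an RNA-binding protein, held 8 each. Cic, a transcriptional repressor, held 7 in 26.5 kb, while Dmd, the dystrophin gene, held 4 in 2390 kb.

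Of 26 long genes listed for their known internal promoters, 23 held a distal summit and Ank3, Mitf and Cux1 had other shared summits. The share was 10.1% over the 10038 coding genes longer than 20 kb. Length was not matched, so the part of gene length in the count of 23 was not tested. Pde4b scored up to 56.0 in the null list and 45.8 in the wild-type list, and Pde4d up to 58.2 in the null list and 33.7 in the wild-type list. Nrxn2 and Nrxn3, cell adhesion genes of synapses whose beta forms start inside the gene, scored up to 32.7 and 31.7 in the null list, against 44.5 and 22.9 in the wild-type list. Dclk1, a doublecortin-like kinase of neuronal migration, scored up to 26.5 in the null list and 44.3 in the wild-type list. Of 22 neural stem cell genes, 9 held a distal summit and the other 13, Sox2, Nes and Pax6 among them, had other shared summits. Over all 21887 coding genes 4.61% held a distal summit, again without matching for length. Sox5, a factor of neural and glial differentiation, scored up to 49.9 in the null list and 45.4 in the wild-type list. Msi1, the RNA-binding protein Musashi, held 6 with scores up to 30.7 in the null list and 35.0 in the wild-type list. Notch1, the receptor that maintains neural progenitors, scored up to 6.82 in the null list and 7.23 in the wild-type list, near the low end of each list.

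The RefSeq start table, which was searched after the first results were seen, places 604 of the 1641 distal summits inside coding genes off chromosome 18 within 1 kb of a coding start. Off chromosome 18, 933 of 3008 distal summits (31.0%) had an annotated coding or lncRNA start within 1 kb and 2075 (69.0%) had none, against 73.6% with a start among proximal summits. Summits with a start scored a median of 20.7 in the null list and 21.6 in the wild-type list. Those with none scored 11.2 in the null list and 10.3 in the wild-type list. Ctcf of the non-silencing list lay within 1 kb of 12.4% of those with a start (interval 10.4% to 14.7%) and 17.3% of those with none (15.7% to 18.9%). In the null list the shares were 9.75% (7.93% to 11.8%) and 10.7% (9.36% to 12.1%). In the untransduced list they were 7.29% (5.70% to 9.15%) and 8.05% (6.91% to 9.30%), so the intervals separated in the non-silencing list only. MBD of the list named for null lay within 1 kb of 3.54% of those with a start (2.45% to 4.93%) and 6.55% of those with none (5.53% to 7.71%). For the list named for wild type the shares were 6.00% (4.57% to 7.72%) and 8.53% (7.36% to 9.82%), with intervals that overlap. Summits with and without a start were not matched for H3K4me3 score, and the part of score in these shares was not tested.

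Beyond these, 849 distal summits (26.97%) lay outside coding genes with no noncoding gene end within 2 kb, against 18.1% of proximal summits, and 673 of all distal summits (21.4%) lay outside every annotated gene as well. Their median score was 10.4 in the null list and 10.1 in the wild-type list for the 849, below 14.2 in both lists inside coding genes. Yet the highest distal score of the wild-type list was among them. Position 8640911 on chromosome 12, 33181 bp from Pum2, scored 68.3 in the null list and 80.6 in the wild-type list. Position 128760943 on chromosome 6, 17542 bp from Klrb1c, scored 84.1 in the null list and 58.3 in the wild-type list, with Ctcf 82, 71 and 133 bp away in the null, untransduced and non-silencing lists. Position 68362486 on chromosome 15, 21197 bp from Mir30d, scored 30.3 in the null list and 58.2 in the wild-type list.

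The 20 distal summits with the highest wild-type scores held 4 with no host and no noncoding gene end within 2 kb, Snhg17, Dancr and n-TEttc6 outside coding genes, and 13 inside coding genes. The hosts were Dlgap4, Tet3, Lpin1, Msra, Prkag2, Vgll4, Kcna2, Trp53bp1, Nol4l, Palld, Amotl1, Rnf114 and Por. Tet3, which oxidises methylated cytosine, scored 51.6 in the null list and 64.0 in the wild-type list at a start inside the gene. Lpin1, a phosphatidate phosphatase, scored 26.8 in the null list and 63.7 in the wild-type list. Msra, which repairs oxidised methionine, scored 69.2 in the null list and 63.7 in the wild-type list. Trp53bp1, a DNA double-strand break repair protein, scored 61.8 in the null list and 58.8 in the wild-type list. Kcna2, a potassium channel, scored 22.6 in the null list and 58.9 in the wild-type list.

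As a group, distal summits scored lower within each list than proximal ones. Medians were 13.0 in the null list and 12.7 in the wild-type list at distal summits, and 32.5 in the null list and 31.4 in the wild-type list at proximal summits. Distal scores ran between 3.37 and 161.3 in the null list and between 3.53 and 80.6 in the wild-type list. The median separation of the null and wild-type summits was 55 bp for distal and 36 bp for proximal summits. The 3148 wild-type summits met 2871 null summits, since 545 of them shared their null summit with another. Of 2521 runs of distal summits within 1 kb of each other, 1966 were single, 497 were pairs and 58 held 3 to 6.

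**Figure D2:**
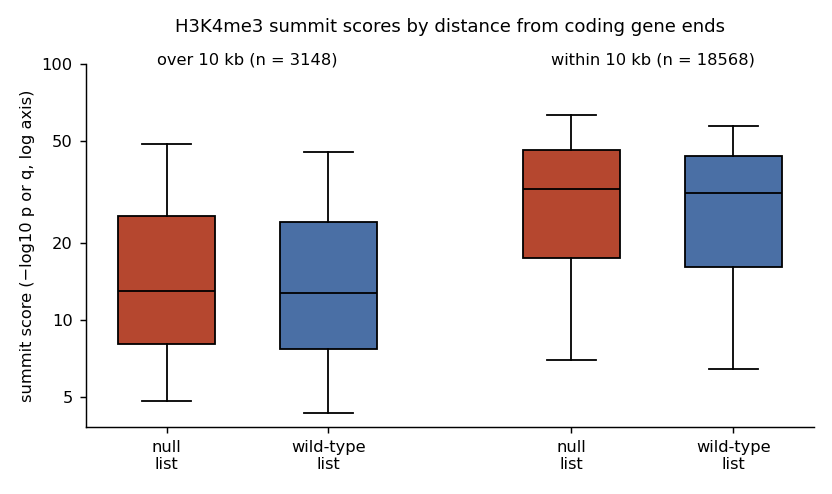
Boxes give the quartiles and whiskers the 5% and 95% points of H3K4me3 summit scores on a log axis, null list left of wild-type list, for 3148 distal and 18568 proximal summits. Medians are 13.0 and 12.7 for distal and 32.5 and 31.4 for proximal summits in the null and wild-type lists.

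The median distance from a distal summit to the nearest coding gene end was 36.2 kb, with 859 at 10 to 20 kb, 1074 at 20 to 50 kb, 649 at 50 to 100 kb and 566 beyond 100 kb. Median scores were 15.0 in the null list and 15.5 in the wild-type list for the nearest of these 4 distance classes, and 11.3 in the null list and 10.2 in the wild-type list for the farthest. The distal summits just past 10 kb lay 10008 bp from an end of Zfp821, 10012 bp from Fam91a1 and 10015 bp from Pou3f2, with null scores of 28.1, 30.9 and 34.0 and wild-type scores of 19.4, 41.5 and 23.0. The proximal summits just short of it lay 9984 bp from Gm6958, 9979 bp from Dlg3 and 9975 bp from Kdm6b, with null scores of 6.95, 27.1 and 10.3 and wild-type scores of 11.3, 31.6 and 16.3. The farthest distal summit lay 1393 kb from a coding gene end, in the gene desert beside Tenm3, and scored 13.1 in the null list and 17.5 in the wild-type list. By chromosome, the distal share of shared summits ran between 10.3% on chromosome 11 and 22.6% on chromosome 13, with 21.8% on chromosome 18 and 13.8% on the X chromosome. Of the 214 distal summits on chromosome 13, 41 were in the stretches of tRNA genes described above, and of the 140 on chromosome 18, 21 were in Tcf4.

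Ctcf lay beside distal summits about as often as beside proximal ones in the null list, and somewhat more often in the non-silencing list. Within 1 kb, a Ctcf summit of the null list stood beside 332 distal summits (10.5%, interval 9.49% to 11.7%), against 10.4% of proximal and 10.5% of all shared summits. For the untransduced wild-type list the share was 7.97% of distal, 8.35% of proximal and 8.30% of all shared summits. For the non-silencing list it was 15.9% of distal (14.7% to 17.3%), 14.0% of proximal (13.5% to 14.5%) and 14.3% of all shared summits. All 3 Ctcf lists had a summit beside 167 distal summits (5.30%, against 5.53% of proximal), and 1 or more lists beside 568 (18.0%, against 16.7%). The lists hold 11920, 8292 and 20483 summits in the null, untransduced and non-silencing cells, and list length sets part of each share. With the 8292 highest summits of each list, the distal shares were 8.20%, 7.97% and 8.45%. Proximal shares at that length are not given here. Intervals cover counting error only and treat neighbouring summits as independent, which they are not. Ctcf of the null list with neither wild-type list stood beside 32 distal summits (1.02%) and 270 proximal ones (1.45%).

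**Figure D3:**
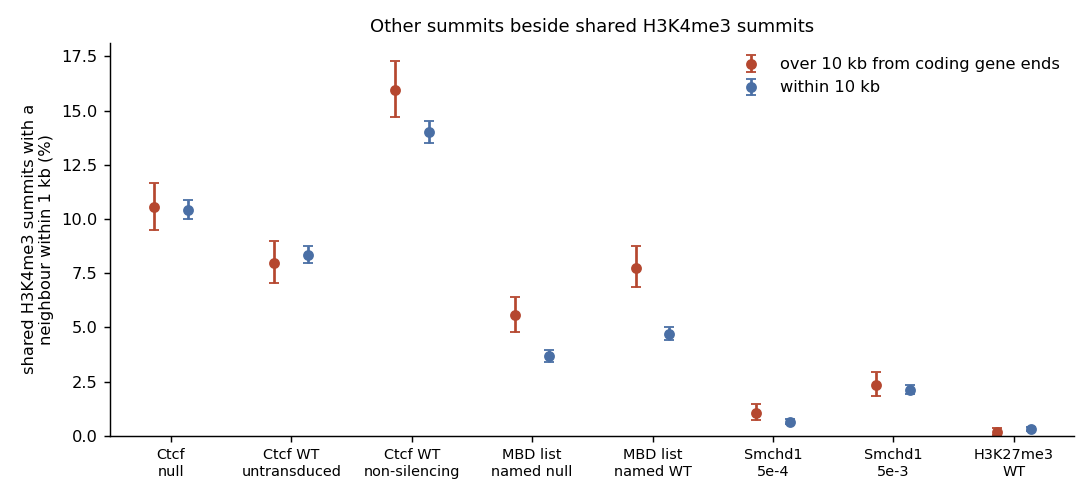
Share of shared H3K4me3 summits with a summit of each other list within 1 kb, for 3148 distal summits (left point of each pair) and 18568 proximal summits (right point), with exact 95% binomial intervals. MBD shares are higher at distal summits (5.56% and 7.75%) than at proximal ones (3.66% and 4.71%), and Ctcf null shares are 10.5% and 10.4%.

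The distance to Ctcf differed more than the share did. Where Ctcf was within 1 kb, its median distance from a distal summit was 203.5, 217 and 201 bp in the null, untransduced and non-silencing lists, against 289, 288 and 295 bp from a proximal summit. Within 250 bp, Ctcf stood beside 6.73%, 4.51% and 9.75% of distal summits in those lists, against 4.59%, 3.73% and 6.09% of proximal ones. Almost no summits coincided: 0.904%, 0.797% and 1.59% of the distal summits that had Ctcf within 1 kb had it within 50 bp. The most frequent class of 100 bp lay between 100 and 200 bp at both kinds of summit, with 140 distal (4.45%) and 544 proximal summits (2.93%) for the null list. At 5 kb the order turned, with 16.9%, 12.0% and 26.4% of distal and 19.1%, 15.2% and 27.2% of proximal summits. Among summits with both H3K4me3 scores of at least 10, Ctcf within 1 kb stood beside 13.0%, 9.92% and 18.9% of distal and 10.4%, 8.35% and 13.7% of proximal summits.

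**Figure D4:**
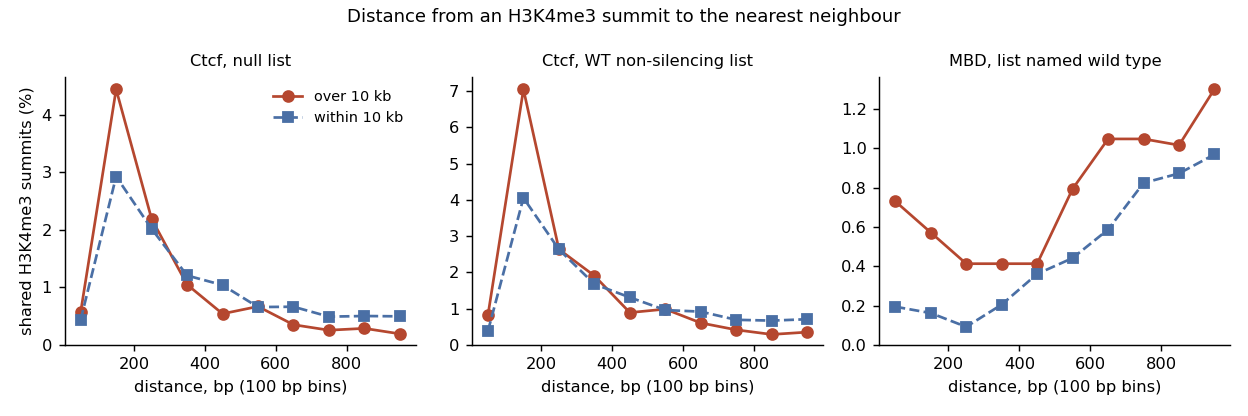
Share of distal (circles) and proximal (squares) shared H3K4me3 summits whose nearest Ctcf or MBD summit falls in each 100 bp class of distance up to 1 kb, for the null Ctcf list, the non-silencing Ctcf list and the MBD list named for wild type. Ctcf peaks between 100 and 200 bp at both distal and proximal summits, whereas MBD is lowest between 200 and 500 bp at distal and between 200 and 300 bp at proximal summits.

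Distal summits outside coding genes had Ctcf more often than those inside. In the non-silencing list the share was 22.1% (19.4% to 25.1%) where no gene end was near, 19.2% (16.0% to 22.6%) at noncoding gene ends and 11.8% (10.3% to 13.4%) inside coding genes. In the null list the shares were 12.8%, 13.8% and 8.35%. By distance the share in the null list was lowest beyond 100 kb, with 10.6%, 13.6%, 10.8% and 4.42% at 10 to 20, 20 to 50, 50 to 100 and over 100 kb. The 20 microRNA summits had Ctcf beside 6 in the null list, 5 in the untransduced list and 5 in the non-silencing list, so that the intervals span 8.66% to 54.3%.

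**Figure D5:**
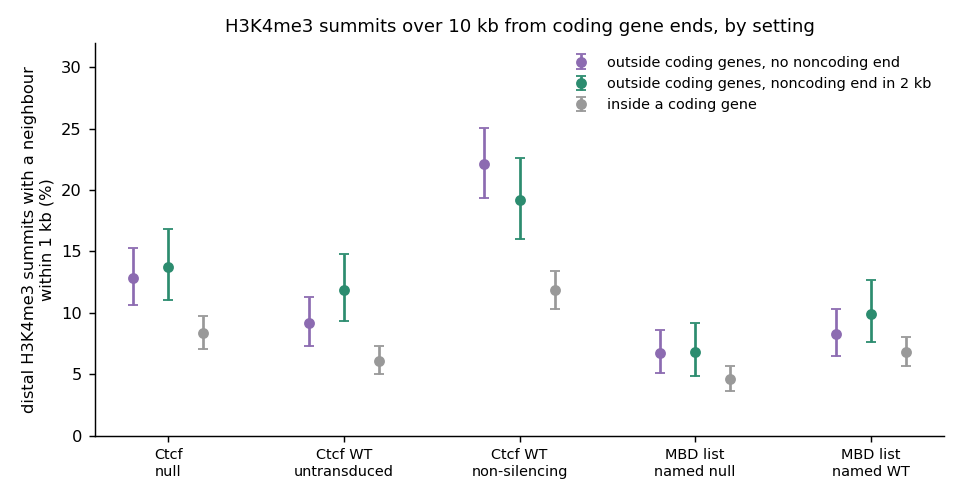
Share of distal H3K4me3 summits with Ctcf or MBD within 1 kb by setting, for 849 outside coding genes with no noncoding gene end within 2 kb, 574 outside coding genes with one, and 1725 inside coding genes, with exact 95% binomial intervals. The non-silencing Ctcf list runs 22.1%, 19.2% and 11.8%.

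The 10 distal summits with the highest null Ctcf score among the 167 with Ctcf in all 3 lists fell at few places. Stag1, a cohesin subunit gene, held 3 of them around a start inside the gene, with null H3K4me3 scores of 19.6, 29.9 and 37.1 and wild-type scores of 43.9, 16.3 and 43.4. The Ctcf summits beside them scored 21.9 in the null list, 17.3 in the untransduced list and 28.8 in the non-silencing list. Tafa5, which encodes a secreted neural protein, held 2, beside Ctcf summits that scored 24.6, 21.4 and 32.2 in the same lists. The summit at position 41951151 on chromosome 9, 13558 bp from Sorl1, scored 12.5 in the null list and 6.46 in the wild-type list. Another 3 lay at pseudogenes on chromosome 8 and are given with the MBD results, and the last, near the lncRNA Gm52862 on chromosome 6, scored 22.8 in the null list and 7.66 in the wild-type list.

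Methylated DNA stood beside distal summits more often than beside proximal ones within 1 kb, though not in every class of H3K4me3 score. The labels of the MBD samples and the names of the MBD lists conflict in genotype, so the lists go by their own names and no genotype difference is drawn. MBD of the list named for null was within 1 kb of 175 distal summits (5.56%, interval 4.78% to 6.42%), against 3.66% of proximal (3.40% to 3.94%) and 3.94% of all shared summits. MBD of the list named for wild type was within 1 kb of 244 (7.75%, 6.84% to 8.74%), against 4.71% of proximal (4.41% to 5.02%) and 5.15% of all shared summits. Both lists had a summit beside 164 distal summits (5.21%, against 3.39%). The order held within 250 bp, at 1.08% and 1.52% of distal against 0.302% and 0.409% of proximal summits in the lists named for null and wild type, and turned at 5 kb, at 36.6% and 42.5% of distal against 41.1% and 47.0% of proximal. Among summits with both H3K4me3 scores of at least 10, the shares were 3.82% (2.94% to 4.87%) and 6.28% (5.15% to 7.58%) of distal, against 2.99% (2.72% to 3.27%) and 3.89% (3.59% to 4.21%) of proximal. By wild-type H3K4me3 score, MBD of the list named for wild type stood beside 7.97% of distal summits under 5, 9.30% at 5 to 10, 8.46% at 10 to 20, 6.36% at 20 to 40 and 3.35% over 40, against 8.41%, 8.36%, 6.84%, 4.22% and 2.60% of proximal summits in the same classes. MBD of the list named for null stood beside 6.77%, 6.54%, 6.37%, 4.19% and 1.86% of distal summits in these classes, against 8.12%, 6.70%, 5.26%, 3.15% and 2.04% of proximal ones. At equal score the distal share was thus the lower one in the class under 5 for both lists, and also at 5 to 10 and over 40 for the list named for null.

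The 10 distal summits with the highest wild-type scores among the 164 with MBD in both lists included 2 tRNA genes, n-TEttc6 and n-TIaat17, whose MBD summits lay 842 to 890 bp away. At Airn the MBD summits lay 865 bp away in the list named for null and 897 bp away in the list named for wild type, with scores of 49.9 and 27.6. Methylation of a single parental copy of this imprinted region is well known, and the summits here carry no allele. At Gm36445, on chromosome 13 at position 65241594, H3K4me3 scored 56.8 in the null list and 42.0 in the wild-type list, with MBD 934 and 936 bp away. At position 31208493 on chromosome 7 the MBD summits lay 68 bp and 12 bp from the H3K4me3 summit, which scored 24.1 in the null list and 34.1 in the wild-type list. Ttll7 and Dctd, a tubulin-modifying enzyme and a deaminase of nucleotide metabolism, completed the coding hosts with Igf2r.

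On chromosome 8 between 19784802 and 20424529, 5 of 5 distal summits had Ctcf in all 3 lists and MBD in both. The region was chosen after it was seen. The summit at 19784802, 48 bp from the pseudogene Gm10060, scored 161.3 in the null list and 22.8 in the wild-type list. The summits at 20424529 and 20297004, beside the pseudogenes Gm20584 and Gm20583, scored 63.2 and 66.2 in the null list, against 34.0 and 55.9 in the wild-type list. Summits at 20122771 and 19980115 scored 74.9 and 29.3 in the null list, against 50.7 and 24.6 in the wild-type list. The last of these also had Smchd1 140 bp away, with a score of 6.37. Pseudogenes as a class had MBD of the list named for wild type beside 14 of 81 distal summits (17.3%, 9.78% to 27.3%), against 9.09% at lncRNA ends (6.94% to 11.6%). The 14 include the summits at Gm10060, Gm20584 and Gm20583, from the stretch chosen after it was seen. The intervals overlap, and no difference between the classes is drawn. Reads from near-identical copies may have been placed on any copy, which makes these summits uncertain, and the part of copy number in them was not tested.

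Smchd1 lay beside few distal summits. At the 5e-4 threshold, a Smchd1 summit was within 1 kb of 33 distal summits (1.05%, interval 0.723% to 1.47%), against 118 proximal summits (0.636%, 0.526% to 0.761%) and 0.695% of all shared summits. At 5e-3 the shares were 2.35% of distal (74 summits), 2.11% of proximal and 2.14% of all shared summits. The 33 summits fell into 23 runs within 1 kb, and with summits merged in this way the shares were 0.912% of distal (0.579% to 1.37%) and 0.635% of proximal runs (0.508% to 0.783%). Smchd1 was within 250 bp at 24 of the 33. Of the 33, 9 lay inside coding genes, 11 at noncoding gene ends outside them and 13 at neither, and 0 on the X chromosome, where 104 distal summits lay. Ctcf of at least 1 list was within 1 kb of 18 of the 33, and MBD of at least 1 list of 9. Over all distal summits the shares were 18.0% for Ctcf and 8.10% for MBD. Among the 118 proximal summits with Smchd1, 47 had Ctcf of at least 1 list, against 16.7% of all proximal summits. The 33 met 27 Smchd1 summits, and neighbouring distal summits that share the same Ctcf or MBD summit are counted singly here. Their H3K4me3 scores had medians of 24.1 in the null list and 14.2 in the wild-type list.

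The domain of Snrpn, an imprinted gene of the locus that corresponds to the human Prader-Willi region, held 6 of the 33. Between 60243769 and 60622613 on chromosome 7, 6 of 6 distal summits had Smchd1 within 1 kb, and Ctcf was within 1 kb of 0 in each of the 3 lists. The stretch was chosen after it was seen, for its Smchd1 summits, and its first and last distal summits both have one, so the count of 6 follows largely from that choice. Of the 6, 4 lay inside the annotated Snrpn gene and the others beyond it. Null scores ran between 20.4 and 42.0 and wild-type scores between 5.08 and 18.8. The summit at 60243769 had the highest Smchd1 score beside a distal summit, 18.4, with H3K4me3 at 25.7 in the null list and 9.90 in the wild-type list. The summit at 60391230 scored 42.0 in the null list and 18.8 in the wild-type list, beside Smchd1 at 11.3. At 60492390 the scores were 38.0 in the null list and 10.2 in the wild-type list, and at 60622613 they were 31.1 in the null list and 5.08 in the wild-type list. MBD of the list named for wild type stood beside 3 of the 6, and MBD of the list named for null beside 0. The scores come from separate lists, and whether the mark itself differed between genotypes cannot be read from them.

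Lrif1 encodes a nuclear factor known as a partner of SMCHD1 in human cells, and its start inside the gene is among the promoters printed above. Its wild-type summits at 106721385 and 106722276 on chromosome 3 scored 8.22 and 26.8. The null list had 1 summit for both, 53 bp from the second of them, which scored 51.6. Smchd1 summits beside them scored 11.0 and 5.53. At Rab10os the Smchd1 summit fell on the same base as the H3K4me3 summit at 3235915 on chromosome 12, with Ctcf 152 bp away in the null list and 84 bp away in the non-silencing list. H3K4me3 there scored 32.4 in the null list and 41.0 in the wild-type list. At Gm51701 on chromosome 9, 3 distal summits within 1 kb shared 1 Smchd1 summit that scored 7.74, Ctcf in all 3 lists and MBD of the list named for wild type. The middle one, at 123925251, scored 31.2 in the null list and 31.9 in the wild-type list.

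On chromosome 8, 3 distal summits between 4677114 and 4678300 lay outside coding genes, 44542 to 45728 bp from Zfp958. An end of the lncRNA Gm6410 was 2274 to 3460 bp away. These summits scored 10.1, 58.8 and 41.9 in the null list, against 8.08, 37.1 and 48.3 in the wild-type list. Smchd1 lay 190, 34 and 1 bp from them. Near the lncRNA Gm26901 on chromosome 1, summits at 7397782 and 7398293 scored 61.5 and 29.9 in the null list, against 51.7 and 27.8 in the wild-type list, with Ctcf in all 3 lists. Grb10, an imprinted gene for a growth factor receptor adaptor, held a summit at 12026126 on chromosome 11 that scored 6.98 in the null list and 4.54 in the wild-type list. Beside it were Smchd1 at 6.61, Ctcf of the null list at 9.12 and MBD at 43.6 in the list named for null and 26.8 in the list named for wild type. In the protocadherin alpha region of chromosome 18, a summit at 37217637 scored 20.1 in the null list and 14.2 in the wild-type list, with Smchd1 747 bp away. Other summits with Smchd1 lay 16943 bp from Six2 and 10165 bp from Pax9, homeobox and paired box genes of development. They scored 12.5 and 9.27 in the null list, against 7.42 and 8.75 in the wild-type list.

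H3K27me3, the mark of Polycomb repressive complexes, was within 1 kb of 0 distal summits in the null list (interval up to 0.117%) and of 5 in the wild-type list (0.159%, 0.0516% to 0.370%), against 3 proximal summits (0.0162%) in the null list and 58 (0.312%) in the wild-type list. All shared summits had 0.0138% in the null list and 0.290% in the wild-type list. The null list holds 77 summits and the wild-type list 732, and this length alone limits how many could meet. The 5 lay inside Wnt6, a signalling ligand, Runx1, a blood transcription factor, and Tenm4, a teneurin of neural wiring, and at positions 96328296 on chromosome 3 and 88938205 on chromosome 4. Wnt6 scored 10.5 in the null H3K4me3 list and 3.53 in the wild-type one, and Runx1 scored 7.53 in the null list and 4.08 in the wild-type list. Tenm4 scored 11.3 in the null list and 12.9 in the wild-type list.

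At 2372 distal summits (75.3%, interval 73.8% to 76.8%) no summit of the Ctcf, MBD or H3K27me3 lists or of the Smchd1 list called at 5e-4 lay within 1 kb, against 78.7% of proximal summits (78.1% to 79.2%).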

How the data were processed

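Chromatin immunoprecipitation with sequencing (ChIP-seq) and MBD capture were used on 28 libraries in 14 groups. The submitters' processing notes name CASAVA 1.4, MACS2 (version 2) and the build mm10, and no source used here names the aligner. The deposited files are 11 lists of summits, each pooled over the libraries of its group, with the authors' score on the −log10 scale. It stands for p or for q, and no source used here says which. The lists were called at 5e-4, and Smchd1 also at 5e-3. Depth per library is unknown, and the control of a list and its depth decide which summits pass. Lists of different length show no change by their shares alone.

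Nearest distances came from Python scripts tested on simulated data (Python 3.11.15, scipy 1.17.1, numpy 2.4.6, pandas 2.3.3), and matplotlib 3.10.9 drew the figures. Summits on unplaced contigs were left out. Gene ends came from a RefSeq table on GRCm38.p6, the same assembly as mm10, with 49943 genes, 21887 of them protein-coding. Promoters (27025 genes) and microRNAs came from RefSeq on the same build, with no sequence used from chromosome 18. That table gives no exons, so exon, intron and untranslated positions are not given. Intervals are exact 95% binomial (Clopper-Pearson) intervals.

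The summits and gene lists were chosen with earlier results of these data known. Named were the 20 summits with the highest wild-type score, all with H3K27me3 beside them, the 20 with the highest Smchd1 score beside them, the 10 highest by null Ctcf among those in all 3 Ctcf lists, the 10 highest by wild-type score with MBD in both lists, listed genes and hosts of at least 4 summits. Not all of these are reported here. Some summits described for Smchd1 lie outside that rule and were chosen after their values were seen. They are those nearest Six2 and Pax9, those at Gm26901 and Rab10os, and the second one at Lrif1. Dancr, Rab10os, Mir106a and Tcf12 as printed promoters were likewise chosen after their values were seen.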

Additional observations from a re-analysis of the deposited data

How the results depend on the processing

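Of 80 alternative settings, 54 left a share within its interval or a count within 1.5 times, and 26 did not. The number of distal summits was 1215 beyond 50 kb and 1623 with both scores at least 10. Within 250 bp, Ctcf stood beside 6.73% (null), 4.51% (untransduced) and 9.75% (non-silencing) of distal summits, MBD beside 1.08% and 1.52% (lists named for null and wild type) and wild-type H3K27me3 beside 0. Within 5 kb, Ctcf stood beside 16.9%, 12.0% and 26.4% and MBD beside 36.6% and 42.5%. With both H3K4me3 scores at least 10, Ctcf stood beside 13.0%, 9.92% and 18.9%, MBD beside 3.82% and 6.28%, a noncoding gene end within 2 kb of 31.2%, and 58.6% lay inside a coding gene. With the 8292 highest summits of each Ctcf list, the null share was 8.20% and the non-silencing share 8.45%. With the 126631 highest of each MBD list, the share in the list named for wild type was 5.88%. Smchd1 called at 5e-3 stood beside 2.35%. A noncoding gene end lay within 500 bp of 15.9% and within 5 kb of 34.9%. Apart from these wider, narrower or shorter searches by construction, the cause was not tested. Left out after they were seen, 43 distal summits at noncoding gene ends between 21 and 24 Mb of chromosome 13, a wider span than the tRNA stretches, and the 5 of the chromosome 8 stretch, 48 in all, moved no share beyond its interval. No paired analysis was possible because each list pools its replicates and carries no replicate number, and for the same reason no replicate could be left out.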

Other observations

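Wild-type H3K4me3 summits more than 10 kb from coding gene ends with no null summit within 1 kb numbered 732. Of these, 47.3% lay inside a coding gene (interval 43.6% to 51.0%) and 38.8% outside coding genes with no noncoding gene end within 2 kb (35.3% to 42.4%), against 54.8% and 26.97% of the distal summits shared by both lists. Their median wild-type score was 6.55, against 12.7 at the shared ones. Ctcf of the non-silencing list stood within 1 kb of 13.7% of them (11.3% to 16.4%), against 15.9% of the shared ones, and MBD of the list named for wild type beside 9.97% (7.90% to 12.4%), against 7.75%. Smchd1 called at 5e-4 stood beside 1 of the 732. A summit near the calling threshold can be missed in either list, so absence from the null list is no evidence that the mark was absent.

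MicroRNA genes with a distal summit outside the listed ones included Mir129-2, Mir193a, Mir193b and Mir6516. The summits beside Mir193a scored 33.8 in the null list and 46.9 in the wild-type list, with Ctcf 481 bp away in the null list and 522 and 481 bp away in the untransduced and non-silencing lists. Mir193b scored 38.9 in the null list and 49.9 in the wild-type list, and it shares the seed ACUGGCC with miR-193a. Mir6516 scored 50.3 in the null list and 51.7 in the wild-type list. At Mir129-2 the summit 374 bp away scored 18.4 in the null list and 11.8 in the wild-type list. A nearer one, 108 bp away, had the same null score and scored 3.53 in the wild-type list. These genes were picked out after their values were seen.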
